A study of Mus musculus with 6 samples.

Results

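Microglia of mice that were helpless after inescapable foot shocks were compared with microglia of mice that received no shocks. The cells were all barcodes that the authors' cell table types as microglia in the acute helpless library and in the non-shocked library: 630 of 687 and 552 of 586 cells, out of 2721 microglia among 3005 cells in the whole series. The non-shocked microglia came from the authors' batch 2 (123 cells) and batch 3 (429 cells), and these were also compared apart. All acute helpless cells were in batch 1, which held no non-shocked cell, and for every value below the effect of the group and that of the batch cannot be told apart.

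Mice of both groups carry the strain label BC57BL/6. The acute helpless mice were given 180 foot shocks of 0.3 mA that they could not escape, each lasting 6 to 10 s with rests of 5 to 45 s, were then tested in 30 trials of 24 s, and were classed as learned helpless. The non-shocked mice received no shocks, and neither group carried a further allele or agent in the labels. The labels do not say whether non-shocked mice went through the test, so the shocks and the test cannot be told apart. Hippocampi were taken right after the procedure, and live CD45-positive cells were sorted for droplet sequencing from the 5' end of transcripts. Each group is 1 library and the labels do not give the number of animals in it, so no spread between animals exists, no test was possible, and intervals are exact 95% intervals that cover counting error only.

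Microglia are the resident macrophages of the brain, and they read signals from neurons, from other immune cells and from the circulation. In stress, the adrenal gland releases glucocorticoids, which bind the glucocorticoid receptor (Nr3c1), a transcription factor that switches on genes such as Fkbp5, Tsc22d3, Ddit4 and Per1 and dampens the inflammatory programme driven by NF-kB. Microglia express the receptor at high levels, and their immediate early genes (Fos, Egr1, Jun and others) respond within minutes to stimuli that include the preparation of the cells.

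Unique molecular identifiers (UMIs), which count transcript molecules, were summed over the microglia of each set and scaled to the total of the set (CPM). The acute helpless sum was 2711534 UMIs. The non-shocked sum was 1873377 UMIs, of which batch 2 gave 174450 and batch 3 gave 1698927. The median microglia had 4161 UMIs in the acute helpless library, 905 in non-shocked batch 2 and 3906 in batch 3. The microglial markers P2ry12, Tmem119, Cx3cr1 and others, 10 in all, together made up 43366 CPM in acute helpless, 32228 CPM in batch 2 and 44121 CPM in batch 3 cells, and none of the 10 was at 0 in any of them. In acute helpless microglia the 6 neuronal, 5 erythroid and 3 usable neutrophil markers were at 0, and the T cell, NK cell and monocyte lists summed to 5.93, 2.59 and 4.45 CPM. In batch 2 these lists summed to 23.1, 40.4 and 5.78 CPM, from 4, 7 and 1 UMIs, and in batch 3 to 2.95, 1.18 and 7.68 CPM. The list of other brain macrophages summed to 22.2 CPM in acute helpless, 11.6 CPM in batch 2 and 17.7 CPM in batch 3 microglia. The B cell, astrocyte, oligodendrocyte and endothelial lists summed to 313, 257, 130 and 633 CPM in acute helpless, 196, 225, 116 and 439 CPM in batch 2 and 298, 152, 122 and 574 CPM in batch 3. Ighm, Slc1a3, Cnp and Bsg had the highest level in these lists in each set, and Cd79a stood at 13.7 CPM in acute helpless, 0 in batch 2 and 2.36 CPM in batch 3 microglia. The part of these transcripts in the results was not tested. Erythroid markers stood at 34.3 CPM in batch 3. The 2 libraries shared 0 cell barcodes.

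A gene was called higher or lower where the ratio was at least 1.5-fold, among 6755 genes with a mean of at least 20 CPM. Many more genes were lower than higher in acute helpless microglia. Against all non-shocked microglia 386 genes were higher (5.71%) and 1392 lower (20.6%). Against batch 2, the smaller and shallower set, 1559 genes were higher (23.1%) and 2201 lower (32.6%), and against batch 3 350 were higher (5.18%) and 1271 lower (18.8%). In the same direction against batch 2, batch 3 and their sum, 202 genes were higher (2.99%) and 926 lower (13.7%), and 49 genes (0.725%) were higher than in one batch and lower than in the other. For scale, the non-shocked batches differed from each other by 1.5-fold at 1425 genes higher in batch 2 (21.1%) and 1433 lower (21.2%).

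The excess of lower calls depended on the scaling. The median log2 ratio of all tested genes was -0.13 against all non-shocked cells, so that higher calls were 21.7% of all calls, and with median-of-ratios scaling, which sets that median near 0, 728 genes were higher and 958 lower, or 43.2% higher. A group of 34 genes stood at least 8-fold above batch 3, 17 of them within 1.5-fold of batch 2, and 20 were unnamed gene models or pseudogenes. Batches 1 and 2 carry older gene symbols than batch 3, and 10 of the 202 higher genes (4.95%) and 9 of the 926 lower genes (0.972%) set every library of batches 1 and 2 apart from every library of batch 3 by 1.5-fold.

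**Figure D1:**
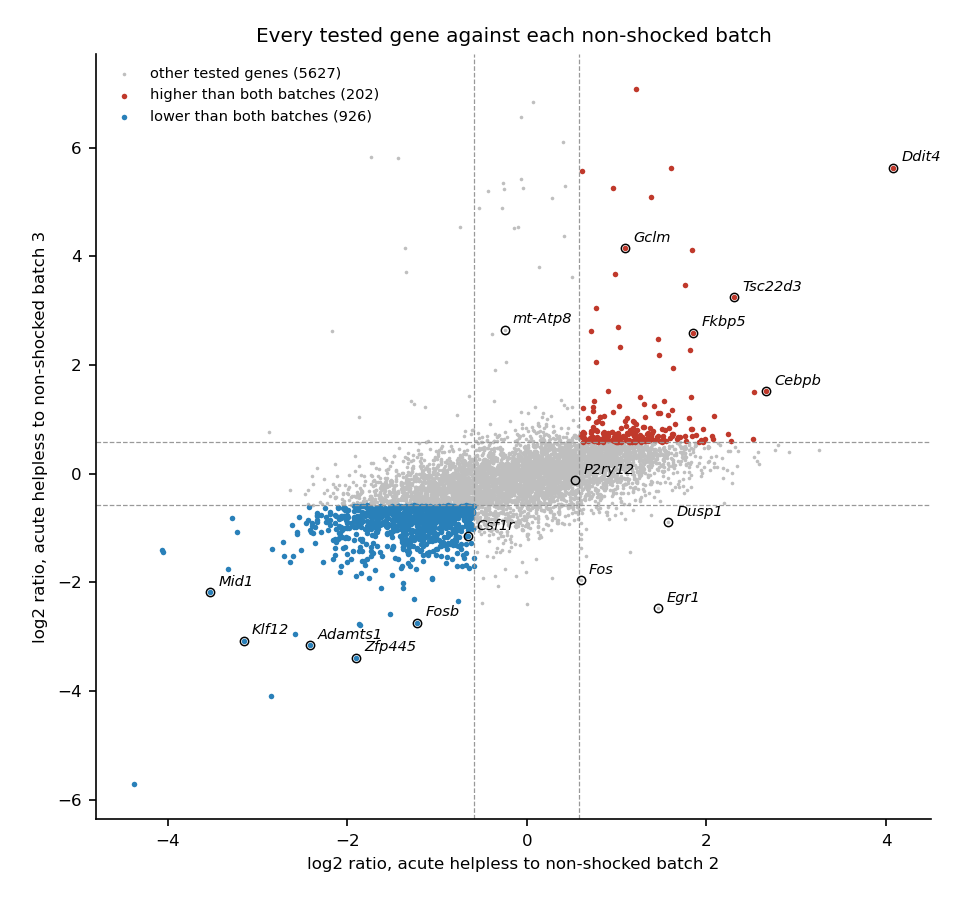
The log2 ratio of acute helpless to non-shocked microglia of batch 2 (x) and of batch 3 (y) for each of the 6755 tested genes; dashed lines mark 1.5-fold. Ddit4, at 4.08 and 5.63, has the highest ratio to batch 2, while several pseudogenes have a higher ratio to batch 3, and Egr1, Fos and Dusp1 lie below 0 on the y axis and above 0 on the x axis.

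Ddit4, Tsc22d3 and Fkbp5, which glucocorticoids induce, had the highest ratios to the nearer batch of all named genes. Ddit4, which restrains the growth kinase mTORC1 under stress, stood at 1173 CPM in acute helpless microglia (3166 UMIs), 69.3 CPM in non-shocked batch 2 (12 UMIs) and 23.6 CPM in batch 3 (40 UMIs). This was 16.9-fold higher than in batch 2 (9.68 to 32.8) and 49.7-fold higher than in batch 3 (36.4 to 69.6). Tsc22d3, which encodes the leucine zipper protein GILZ that restrains NF-kB and AP-1, stood at 428 CPM against 86.7 and 44.9 CPM, 4.94-fold (2.99 to 8.86) and 9.54-fold (7.56 to 12.2) higher. Fkbp5, whose protein sits on the glucocorticoid receptor complex and lowers its affinity for hormone, stood at 271 CPM against 75.1 and 44.9 CPM, 3.61-fold (2.10 to 6.82) and 6.04-fold (4.77 to 7.76) higher. In all of these the acute helpless level lay above both non-shocked batches, and the non-shocked batches lay closer to each other than to it.

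Of the other glucocorticoid-induced genes, some were higher and some lower. The whole list held 17 tested genes, of which 5 were higher and 2 lower than both batches, beside 2.99% and 13.7% of all tested genes. The higher ones were Ddit4, Tsc22d3, Fkbp5, Nfkbia and Glul. Against batch 3 alone 6 were higher and 5 lower, beside 5.18% and 18.8% of all tested genes. Dusp1 was 1.86-fold lower (1.52 to 2.27) than batch 3 but 2.98-fold higher (1.15 to 11.1) than batch 2, from 4 UMIs. The median log2 ratio of the whole list was 0.74 against batch 2 and 0.21 against batch 3, beside -0.10 and -0.11 for all tested genes. Nfkbia, which encodes the NF-kB inhibitor IkB-alpha, stood at 414 CPM against 173 and 155 CPM, 2.39-fold (1.66 to 3.55) and 2.67-fold (2.33 to 3.07) higher. Glul, glutamine synthetase, stood at 2065 CPM against 728 and 1164 CPM, 2.84-fold (2.38 to 3.41) and 1.77-fold (1.68 to 1.87) higher. The members lower than both batches were Tgfbr2, a receptor for TGF-beta (311 CPM against 601 and 573), and Mertk, a receptor for the uptake of dying cells (372 CPM against 734 and 595). Per1, a clock gene with glucocorticoid response elements, had 35.9 CPM in acute helpless, 46.2 in batch 2 (8 UMIs) and 14.2 in batch 3 cells. It was 2.54-fold higher (1.61 to 4.15) than batch 3. Against batch 2 its interval, 1.29-fold lower (0.540 to 2.64), spans 1, so its side there is not settled. Sgk1, Txnip and Sesn1 were less than 1.5-fold apart from all non-shocked cells, and Nr3c1 itself stood at 161 CPM against 196 and 201 CPM. Klf9, Zbtb16 and 5 other members were under the limit of 20 CPM.

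The promoters of these 3 leading genes are shown because the receptor binds DNA through repeats of the 6 letters TGTTCT. Each runs from 250 bases before to 50 after a transcript start, on the minus strand, in RefSeq's annotation of GRCm38.p6, with any TGTTCT or its reverse complement AGAACA in capitals. Ddit4 spans chr10:59949675-59951770, Tsc22d3 chrX:140539528-140600522 and Fkbp5 chr17:28398753-28486149.
Ddit4 (chr10:59951721-59952020): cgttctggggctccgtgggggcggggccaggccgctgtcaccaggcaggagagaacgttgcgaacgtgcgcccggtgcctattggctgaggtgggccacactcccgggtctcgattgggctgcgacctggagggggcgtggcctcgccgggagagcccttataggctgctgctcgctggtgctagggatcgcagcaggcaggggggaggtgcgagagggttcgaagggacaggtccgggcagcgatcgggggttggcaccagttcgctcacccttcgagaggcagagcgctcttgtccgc
Tsc22d3, farthest upstream of 3 starts (chrX:140600473-140600772): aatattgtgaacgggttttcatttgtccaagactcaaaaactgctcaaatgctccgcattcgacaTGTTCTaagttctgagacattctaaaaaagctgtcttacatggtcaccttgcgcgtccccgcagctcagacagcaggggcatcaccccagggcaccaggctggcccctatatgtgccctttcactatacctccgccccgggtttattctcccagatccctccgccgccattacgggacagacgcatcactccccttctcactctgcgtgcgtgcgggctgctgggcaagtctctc
Fkbp5 (chr17:28486100-28486399): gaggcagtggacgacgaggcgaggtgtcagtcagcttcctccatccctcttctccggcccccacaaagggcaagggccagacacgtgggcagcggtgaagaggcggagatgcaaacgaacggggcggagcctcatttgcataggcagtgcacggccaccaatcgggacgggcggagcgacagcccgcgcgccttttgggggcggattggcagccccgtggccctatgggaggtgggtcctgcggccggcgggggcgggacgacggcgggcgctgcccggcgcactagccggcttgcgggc
The Ddit4 and Fkbp5 windows hold no match, and the Tsc22d3 window shown holds 1, while those at the other 2 Tsc22d3 starts hold 0. The hexamer occurs in 19.0% of 32851 RefSeq promoters of this length, and in at least 1 promoter of 3 of the 21 list genes with a promoter (Cd163, Sgk1 and Tsc22d3), against 21.3% of all genes. These letters say nothing of binding outside the windows.

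**Figure D2:**
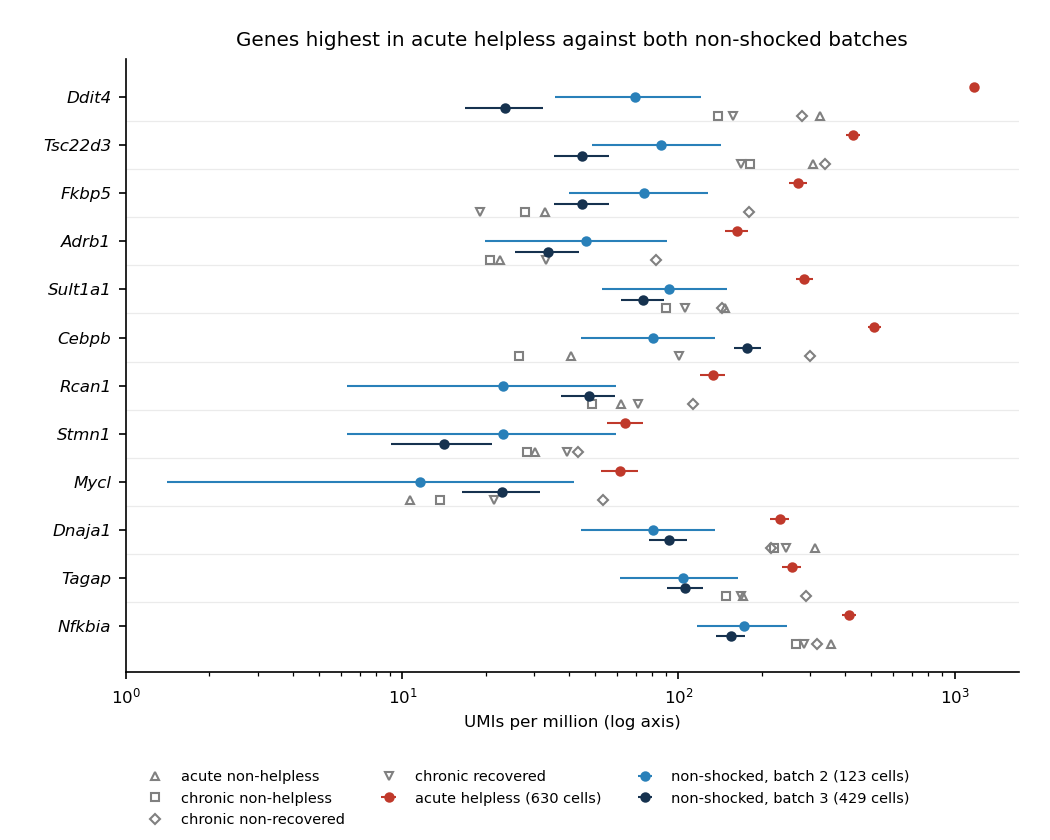
Level in CPM (log axis) of the 12 named genes with the highest ratio to the nearer non-shocked batch (unnamed gene models left out), in acute helpless microglia and in both non-shocked batches, with exact 95% counting intervals; grey symbols give the other 4 groups without intervals. Acute helpless Ddit4 at 1173 CPM lies above the other 4 groups, which run from 138 to 326 CPM, whereas Dnaja1 at 233 CPM lies among them.

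Ddit4 UMIs were also counted per cell, which includes any from free RNA, a share that was not tested. With every cell thinned to 1000 UMIs, which left out 67 of the 123 batch 2 and 25 of the 429 batch 3 cells and none of the 630 acute helpless cells, the median acute helpless microglia had 1 Ddit4 UMI, the upper quartile 2 and the highest cell 9. The mean was 1.17 UMIs, against 0.0714 in batch 2 and 0.0223 in batch 3 cells, of which the 90th percentile was 0 in both. Without thinning the means were 5.03, 0.0976 and 0.0932 UMIs per cell. Thinned means of Tsc22d3 were 0.414, 0.0536 and 0.0470 UMIs, and those of Fkbp5 0.324, 0.0357 and 0.0446.

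The authors' clusters of cells were not shared evenly. Cluster 1 held 46.2% of acute helpless microglia (291 cells) and 56.9% of batch 3 cells (244), cluster 2 held 226 acute helpless and 0 non-shocked cells, and cluster 6 held 122 of the 123 batch 2 cells and 0 acute helpless cells. Clusters 1 and 3 alone had at least 30 cells of both groups, and their non-shocked cells were of batch 3 except for 1 cell. Within cluster 1 Ddit4 was 46.9-fold higher (32.9 to 69.2), Tsc22d3 9.58-fold (7.19 to 13.02) and Fkbp5 6.25-fold (4.66 to 8.55). Within cluster 3, 112 against 139 cells, they were 69.6-fold (31.7 to 191), 8.82-fold (5.40 to 15.3) and 6.84-fold (4.26 to 11.6) higher. Of the 34 named genes that were higher than both batches, 23 in cluster 1 and 33 in cluster 3 were also at least 1.5-fold higher there, and of the 45 lower genes 32 and 35 were at least 1.5-fold lower. These genes were chosen by ratios that included the same cells, so these counts are in part fixed by the choice and are no separate support. The share of all tested genes called within each cluster was not computed.

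Adrb1, Sult1a1, Rcan1, Stmn1, Tagap and Mycl were also among the named genes with the highest ratios to the nearer batch. Adrb1, the beta-1 adrenergic receptor that binds noradrenaline, stood at 163 CPM against 46.2 and 33.7 CPM, 3.52-fold (1.77 to 8.21) and 4.83-fold (3.66 to 6.49) higher. Sult1a1, a phenol sulfotransferase, stood at 286 CPM against 92.4 and 74.4 CPM. Rcan1, an inhibitor of the phosphatase calcineurin, stood at 133 CPM against 23.1 and 47.3 CPM. Stmn1, which destabilizes microtubules, stood at 64.1 CPM against 23.1 and 14.2 CPM, and Tagap, a GTPase-activating protein of T cells and myeloid cells, at 257 CPM against 104 and 106 CPM. Mycl, a MYC family member, stood at 61.5 CPM against 11.6 CPM (2 UMIs) and 23.04 CPM. The acute helpless counting interval lay above both non-shocked intervals for Adrb1, Sult1a1, Rcan1, Tagap and Mycl, whereas for Stmn1 it overlapped that of batch 2, which rests on 4 UMIs.

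Among C/EBP and Kruppel-like factors, 3 of 10 tested members were higher than both batches, beside 2.99% of all tested genes, and 0 lower. The median log2 ratios were 0.47 and 0.46. Cebpb, a factor of myeloid and inflammatory gene programmes, stood at 512 CPM against 80.9 and 178 CPM, 6.33-fold (3.76 to 11.6) and 2.88-fold (2.54 to 3.27) higher. Cebpg, its dimer partner, stood at 261 CPM against 121 and 143 CPM. Klf4 stood at 35.6 CPM, from 96 UMIs, against 1 UMI in batch 2 and 12 UMIs (7.09 CPM) in batch 3. Levels of Cebpb, Adrb1 and Fkbp5 also ran widely over the other groups: Cebpb stood at 40.9 CPM in acute non-helpless, 26.4 in chronic non-helpless, 101 in chronic recovered and 300 CPM in chronic non-recovered microglia. Adrb1, by the same order, stood at 22.7, 20.7, 33.1 and 83.2 CPM, and Fkbp5 at 32.9, 27.8, 19.2 and 180 CPM. Acute helpless microglia had the highest level of these 3 genes in the series, and chronic non-recovered microglia, from 99 cells of batch 3, the next.

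Heat shock genes encode chaperones that fold proteins, many of them induced by heat and other proteotoxic stress. Of 21 tested members 5 were higher than both batches, beside 2.99% of all tested genes, and 0 lower, with median log2 ratios of 0.66 against batch 2 and 0.41 against batch 3. Dnaja1, which hands client proteins to HSP70, stood at 233 CPM against 80.9 and 92.1 CPM, 2.88-fold (1.70 to 5.29) and 2.53-fold (2.12 to 3.03) higher. Hsp90ab1, the constitutive cytosolic HSP90, stood at 1077 CPM against 462 and 573 CPM, and Hspa8, the constitutive HSP70, at 1406 CPM against 612 and 865 CPM. Hspe1, the mitochondrial cochaperonin, stood at 199 CPM against 80.9 and 110 CPM, and Ahsa1, which activates HSP90, at 118 CPM against 46.2 and 72.1 CPM. These 5 are cytosolic or mitochondrial chaperones or their helpers. The most strongly inducible member, Hspa1a, had 32.2 CPM against 0 UMIs in batch 2, at least 1.86-fold higher with 3 UMIs taken as the floor of that batch, and against 24.2 CPM in batch 3, 1.33-fold higher (0.908 to 1.98). The chaperones of the endoplasmic reticulum Hspa5 and Hsp90b1 stood at 795 and 954 CPM against 797 and 1098 CPM in batch 2 and 906 and 1118 CPM in batch 3.

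Promoters of Hspe1 and Dnaja1 are shown because heat shock factor binds inverted repeats of GAA and these windows hold such a repeat. The Ahsa1 window holds none, nor do the other 2 Dnaja1 windows, and Hsp90ab1 and Hspa8 promoters were not analysed here. Both lie on the plus strand of GRCm38.p6 in RefSeq's annotation, and the capitals mark GAANNTTC, which reads the same on either strand.
Hspe1 (chr1:55087898-55088197): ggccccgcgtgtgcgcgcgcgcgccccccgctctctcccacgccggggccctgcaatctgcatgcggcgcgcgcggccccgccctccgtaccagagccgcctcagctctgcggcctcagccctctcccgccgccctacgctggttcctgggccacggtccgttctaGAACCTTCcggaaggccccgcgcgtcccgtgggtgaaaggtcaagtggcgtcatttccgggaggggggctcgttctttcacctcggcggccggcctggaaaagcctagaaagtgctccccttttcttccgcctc
Dnaja1, first of 3 starts (chr4:40722218-40722517): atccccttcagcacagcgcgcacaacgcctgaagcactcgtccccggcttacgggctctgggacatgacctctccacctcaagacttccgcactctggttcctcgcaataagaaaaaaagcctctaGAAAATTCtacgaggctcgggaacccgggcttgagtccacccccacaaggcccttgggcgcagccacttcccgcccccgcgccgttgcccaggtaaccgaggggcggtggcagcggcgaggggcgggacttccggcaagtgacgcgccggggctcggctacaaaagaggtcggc
GAANNTTC occurs in 7.86% of the 32851 promoters. It occurs in 10 of the 19 list genes with a promoter, against 9.04% of all genes, and the list was chosen for heat shock induction.

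Immediate early genes took opposite sides of the non-shocked batches. They were lower than in batch 3 for 12 of 19 tested members and higher than in batch 2 for 8, with median log2 ratios of -0.89 and 0.36. Of all tested genes 18.8% were lower than in batch 3 and 23.1% higher than in batch 2. Egr1, a zinc finger factor, stood at 95.2 CPM in acute helpless microglia, between 34.7 CPM in batch 2 (6 UMIs) and 531 CPM in batch 3 (899 UMIs). It was 2.75-fold higher (1.25 to 7.56) than in one and 5.58-fold lower (4.85 to 6.43) than in the other. Fos, a subunit of AP-1, stood at 105 CPM between 69.3 and 408 CPM. Junb, Ier2, Ier5, Dusp1, Btg2 and Zfp36 likewise lay between the batches. Fosb was lower than both, at 7.41 CPM against 17.3 CPM (3 UMIs) and 49.6 CPM, although its interval against batch 2, 2.34-fold lower (0.445 to 7.88), spans 1. Klf4 was the only member higher than both. The difference between the non-shocked batches was therefore larger than that between acute helpless cells and either of them for Egr1 and Fos.

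**Figure D3:**
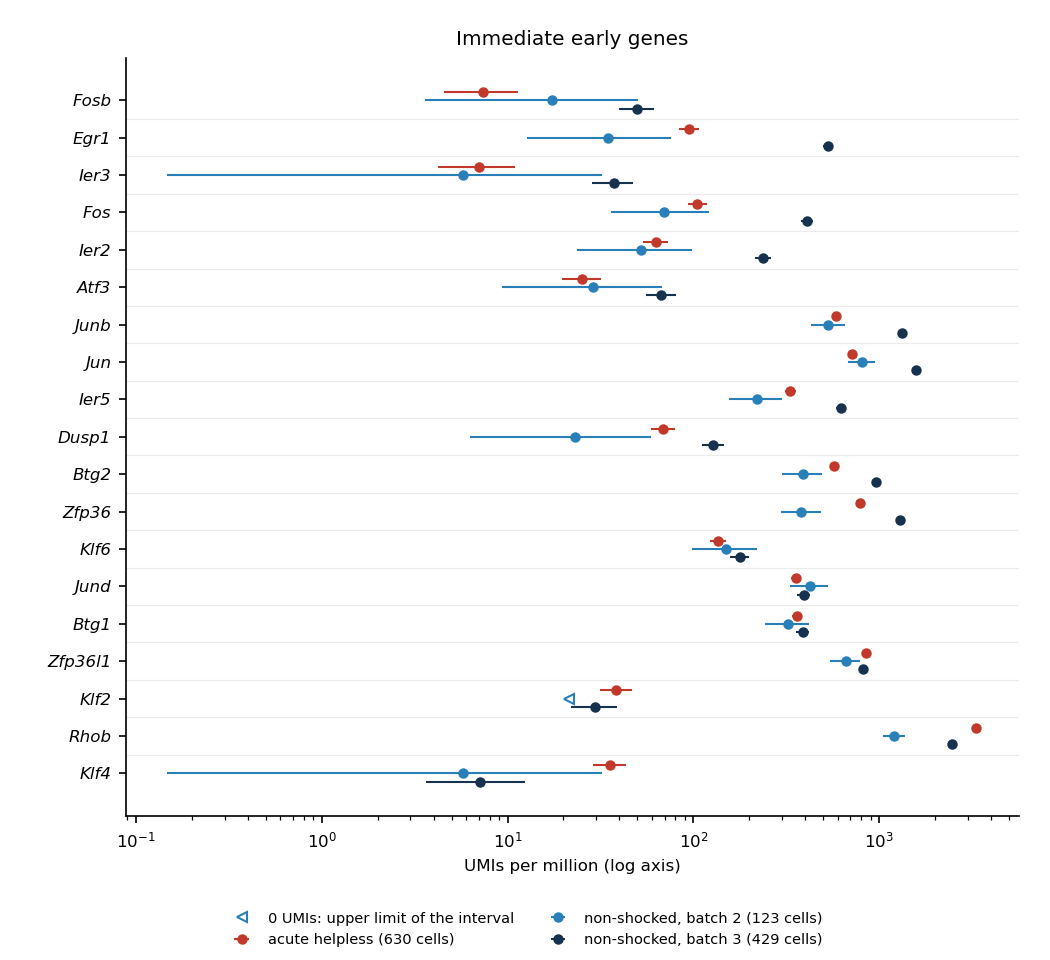
Level in CPM (log axis) of the 19 tested immediate early genes in acute helpless and non-shocked microglia, with exact 95% counting intervals; the open triangle is the upper limit where no UMI was found. Batch 3 stands to the right of the other sets for Egr1 (531 CPM), Fos (408 CPM) and Ier2 (237 CPM), and Klf4 (35.6 CPM) is highest in acute helpless microglia.

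Chemokines and cytokines showed the same dependence on the batch. Of 10 tested members 0 were higher and 2 lower than both batches, beside 13.7% of all tested genes that were lower. The median log2 ratio was 0.09 against batch 2 and -0.48 against batch 3. Ccl3 and Ccl4, which attract leukocytes, stood at 19.3 and 35.2 CPM against 17.3 and 23.1 CPM in batch 2, from 3 and 4 UMIs, and 43.1 and 75.6 CPM in batch 3. Ccl12, a ligand of Ccr2, stood at 37.1 CPM against 57.8 and 124 CPM, and Csf1, a ligand of the receptor Csf1r, at 15.9 CPM against 34.7 and 24.8 CPM. The Csf1 intervals span 1 against both batches, 2.17-fold lower (0.757 to 5.13) than batch 2, from 6 UMIs, and 1.56-fold lower (0.993 to 2.44) than batch 3. Il1b, Tnf, Ccl2, Il6 and 9 other members were under the limit of 20 CPM.

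Inhibitors of NF-kB stood on both sides of the non-shocked level. Of 18 tested NF-kB subunits and feedback genes, 1 was higher and 5 lower than both batches, beside 2.99% and 13.7% of all tested genes. Nfkbia, given above, was the higher one. Tnfaip3, which encodes the ubiquitin-editing inhibitor A20, stood at 17.8 CPM against 75.1 and 62.0 CPM, 4.22-fold (2.10 to 7.92) and 3.49-fold (2.46 to 5.01) lower. Nfkbiz, an atypical nuclear IkB, stood at 10.0 CPM against 28.9 CPM, from 5 UMIs, and 59.7 CPM. Its interval against batch 2, 2.89-fold lower (0.868 to 7.60), spans 1. Birc3, Rel and Nfkbid were the other 3 members lower than both. The Nfkbid interval against batch 2, 1.69-fold lower (0.525 to 4.25) from 5 UMIs, also spans 1. The subunits Rela and Nfkb1 stood at 103 and 93.0 CPM against 116 and 110 CPM in batch 2 and 146 and 132 CPM in batch 3. Nlrp3, the sensor of the inflammasome that matures IL-1beta, was among the genes with the lowest ratios, at 29.3 CPM against 110 and 108 CPM, 3.75-fold (2.14 to 6.25) and 3.67-fold (2.80 to 4.84) lower.

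Klf12, Adamts1, Mid1, Nptn, Mnt, Dusp16 and Zfp266 were among the genes with the lowest ratios to the nearer batch. Klf12, a transcriptional repressor, stood at 5.19 CPM (14 UMIs) against 46.2 and 43.7 CPM, 8.91-fold (3.24 to 22.8) and 8.42-fold (4.72 to 16.2) lower. Adamts1, a secreted metalloprotease, stood at 12.97 CPM against 69.3 and 115 CPM, and Mid1, a ubiquitin ligase on microtubules, at 10.0 CPM against 116 and 45.5 CPM. Nptn, a cell adhesion protein of the immunoglobulin family, stood at 106 CPM against 358 and 398 CPM, Mnt, a repressor that pairs with MAX, at 13.7 CPM against 57.8 and 44.3 CPM, and Dusp16, a phosphatase of JNK, at 10.7 CPM against 34.7 and 36.6 CPM. The zinc finger gene Zfp266 stood at 14.5 CPM against 52.0 and 51.4 CPM. Nptn stood between 386 and 437 CPM in the other 4 groups, so that its low level was found in the acute helpless library alone of the series. Hnrnpu, Srek1 and Zfp445, which also ranked here, were low in every library of batches 1 and 2 and high in every library of batch 3; Hnrnpu, for example, stood at 39.7 CPM in acute helpless, 62.7 CPM in acute non-helpless and 144 CPM in batch 2 cells, and from 273 to 310 CPM in batch 3 cells of the 4 groups there.

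RNA-processing genes and nuclear RNAs were lower as a list. Of 19 tested members 7 were lower than both batches, beside 13.7% of all tested genes, and 0 higher. The median log2 ratios were -1.27 and -0.47. Malat1, an abundant nuclear long RNA, stood at 9811 CPM against 34747 and 14250 CPM. Clk1, a kinase of splicing factors, stood at 110 CPM against 445 and 197 CPM, Srsf5, a splicing factor, at 196 CPM against 612 and 329 CPM, and the nuclear long RNA Neat1 at 30.8 CPM against 86.7 and 57.3 CPM. All of these were highest in batch 2. The share of ribosomal protein transcripts ran the opposite way: it was 6.79% of UMIs in acute helpless, 3.59% in batch 2 and 4.56% in batch 3 microglia. Microglia with under 2.5% of such UMIs were 15.9% of the acute helpless cells (exact binomial interval 13.1 to 19.0), 63.4% in batch 2 (54.3 to 71.9) and 34.3% in batch 3 (29.8 to 39.0). The part of this share in the levels was not tested. Among the cells with at least 2.5%, 4 of the 19 members were lower than both batches and the medians were -0.95 and -0.33.

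The ratio also followed gene length. Over 6718 tested genes with a length in RefSeq, split into 4 equal groups, the median log2 ratio to all non-shocked microglia was 0.17 in the shortest group (median 5.02 kb), -0.02 and -0.23 in the next groups and -0.45 in the longest (median 91.9 kb). In the shortest group 228 genes were higher and 110 lower, and in the longest 23 were higher and 631 lower. Among cells with at least 2.5% ribosomal protein UMIs the medians were 0.11, -0.03, -0.18 and -0.34, a smaller range in the same order. In these cells 252 genes were higher and 1076 lower than in all non-shocked microglia, and 73 and 622 against both batches, of which 63 and 519 were among the 202 and 926. Ddit4 (13.2-fold against batch 2 and 48.9-fold against batch 3), Tsc22d3 (3.16-fold and 9.48-fold) and Fkbp5 (7.29-fold and 6.18-fold) were higher in these cells too. The batch 2 ratios here rest on 45 cells and few UMIs and are given without intervals. All 123 batch 2 cells together held 12 Ddit4 and 13 Fkbp5 UMIs.

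**Figure D4:**
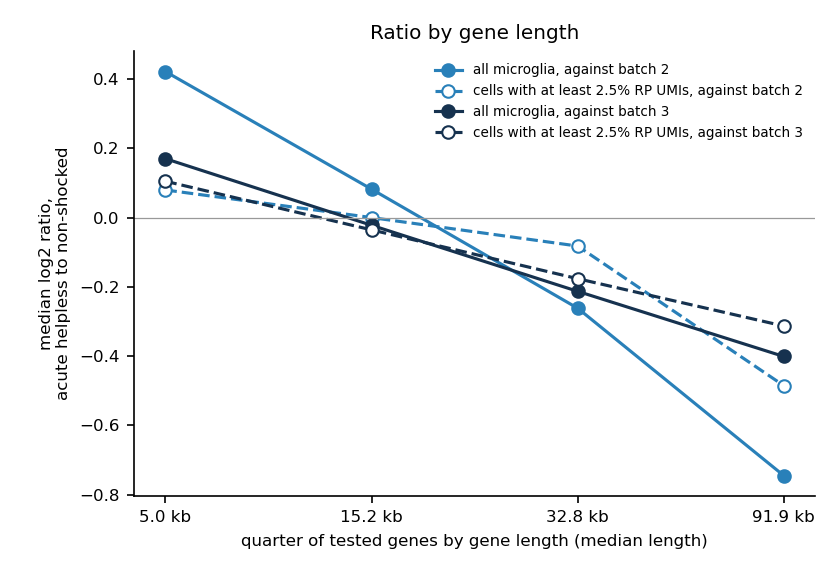
Median log2 ratio of acute helpless to non-shocked microglia (y) in 4 equal groups of tested genes ordered by gene length (x, median length of each group), for all microglia (filled) and for cells with at least 2.5% ribosomal protein UMIs (open), against batch 2 and batch 3. The medians decrease from the shortest to the longest genes in every line, from 0.42 to -0.75 in all microglia against batch 2.

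Homeostatic microglial genes had calls in both directions against batch 2, as did all tested genes. Of 30 tested members 8 were higher and 7 lower than batch 2, beside 23.1% and 32.6% of all tested genes. Against batch 3, 0 were higher and 6 lower, beside 5.18% and 18.8% of all tested genes. The median log2 ratios of the list were 0.18 and 0.03. Against both batches 0 were higher and 5 lower, a share near the 13.7% of all tested genes that were lower than both. P2ry12, the purine receptor that guides microglial processes, stood at 6382 CPM against 4408 and 6924 CPM, and Tmem119, a surface protein of microglia, at 3681 CPM against 2062 and 2994 CPM. The 5 lower genes were Csf1r, Csf3r, Sall1, Sall3 and Mef2a. Csf1r, the receptor for CSF1 and IL-34 on which microglial survival rests, stood at 3596 CPM against 5684 and 7952 CPM, 1.58-fold (1.48 to 1.69) and 2.21-fold (2.15 to 2.27) lower. Sall1, a transcription factor that maintains microglial identity, stood at 165 CPM against 352 and 263 CPM, although within cluster 3 its log2 ratio was 0.25, and Mef2a at 470 CPM against 1184 and 728 CPM. Among 17 identity transcription factors 4 were lower than both batches and 0 higher, Smad3 being the one not yet named, while Spi1 and Irf8 were less than 1.5-fold apart from all non-shocked cells. In cells with at least 2.5% ribosomal protein UMIs Csf1r was 1.43-fold lower than batch 2 and 2.01-fold lower than batch 3.

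Against both batches the complement and the adhesion lists had lower calls only, where 13.7% of all tested genes were lower. Of 14 tested complement and Fc receptor genes 0 were higher and 2 lower than both batches, a share near that of all tested genes. C5ar2, a receptor for C5a, was among the lower, at 32.6 CPM against 92.4 and 73.2 CPM. Of 14 adhesion and chemotaxis receptors 0 were higher and 3 lower than both, among them Itgb1, the beta-1 integrin, at 219 CPM against 433 and 329 CPM. Pecam1, an adhesion protein, was another, at 19.3 CPM against 40.4 and 33.1 CPM, although its log2 ratio within cluster 1 was 0.29. The Pecam1 interval against batch 2, 2.10-fold lower (0.804 to 4.64) from 7 UMIs, spans 1. Of 8 tested growth factors and bridging proteins 0 were higher and 3 lower than both batches. Pros1, protein S, which links dying cells to Mertk, stood at 157 CPM against 526 and 402 CPM. Pdgfb and Csf1 were the others, Csf1 with intervals that span 1. In the lysosomal and phagocytic list 2 of 35 tested genes, Pros1 and Mertk, were lower than both and 0 higher.

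Antigen presentation, interferon and disease-associated lists had at most 1 member each called against both batches, where 2.99% of all tested genes were higher and 13.7% lower. Of 9 tested MHC class II genes 0 were called against both batches, with medians of 0.36 and -0.41, and H2-Eb1 stood at 27.4 CPM against 0 UMIs in batch 2 and 55.5 CPM in batch 3. Of 18 MHC class I genes H2-T23 alone was lower than both, at 83.8 CPM against 173 and 191 CPM. Of 7 tested interferon-stimulated genes 0 were higher and 1 lower than both, with medians of -0.55 and -0.13, while Ifit3, Isg15, Irf7 and 15 others were under the limit. Of 16 disease-associated microglia genes only Csf1, whose intervals span 1, was called against both batches, and Apoe, the lipid carrier, stood at 520 CPM against 531 and 527 CPM. Lipid and cholesterol genes had 0 of 15 members called against both. Glycolysis and hypoxia genes had 1 of 18, Hif1a, which was lower in the sums but had a log2 ratio of 0.25 within cluster 3 and of 0.083 against all non-shocked cells when cells were thinned to 1000 UMIs.

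Transcripts of translation and of the nuclear genes of the respiratory chain were higher as lists, whereas mitochondrially encoded genes were not. Of 13 tested mitochondrially encoded genes 0 were higher and 0 lower than both batches, with median log2 ratios of -0.30 against batch 2 and -0.10 against batch 3. Of 83 tested ribosomal protein genes 22 were higher than both batches, beside 2.99% of all tested genes, and 0 lower, with median log2 ratios of 1.01 and 0.51. Among cells with at least 2.5% ribosomal protein UMIs 1 was higher than both, with medians of 0.34 and 0.32. Of 40 nuclear genes of the respiratory chain 6 were higher than both and 0 lower, with medians of 0.99 and 0.46; Ndufs6, a subunit of complex I, stood at 61.5 CPM against 17.3 and 34.9 CPM, and Cox4i1, of complex IV, at 426 CPM against 185 and 281 CPM. Translation factors had 2 of 23 higher than both (Eef1g and Tpt1) and proteasome and ubiquitin genes 1 of 22 (Psmb5). The actin and migration list had Tmsb10 and Tagln2 higher and Msn lower of 23. For the ribosomal protein, respiratory chain, translation and antioxidant lists the medians against both batches were smaller among the cells rich in ribosomal protein UMIs, and 2 respiratory chain, 0 translation and 0 antioxidant genes were higher than both batches there. That choice of cells uses the ribosomal protein transcripts themselves, so for that list the smaller medians are in part fixed by it.

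Of 16 antioxidant genes 2 were higher than both batches, beside 2.99% of all tested genes. Hmox1, haem oxygenase, stood at 48.5 CPM against 11.6 CPM (2 UMIs) and 22.4 CPM. Gclm, a subunit of the enzyme that starts glutathione synthesis, stood at 1339 CPM against 630 and 75.02 CPM, but it also stood at 1686 CPM in acute non-helpless microglia and from 50.6 to 143 CPM in the chronic libraries, so it parted batches 1 and 2 from batch 3. The mitochondrially encoded mt-Nd4 and mt-Atp8 did the same, at 1188 and 1439 CPM in acute helpless, 1525 and 1710 CPM in batch 2 and 315 and 229 CPM in batch 3 microglia. Of 12 tested cell cycle genes Stmn1 and Hmgb2 were higher than both batches, and Mki67, Top2a and 9 others were under the limit.

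**Figure D5:**
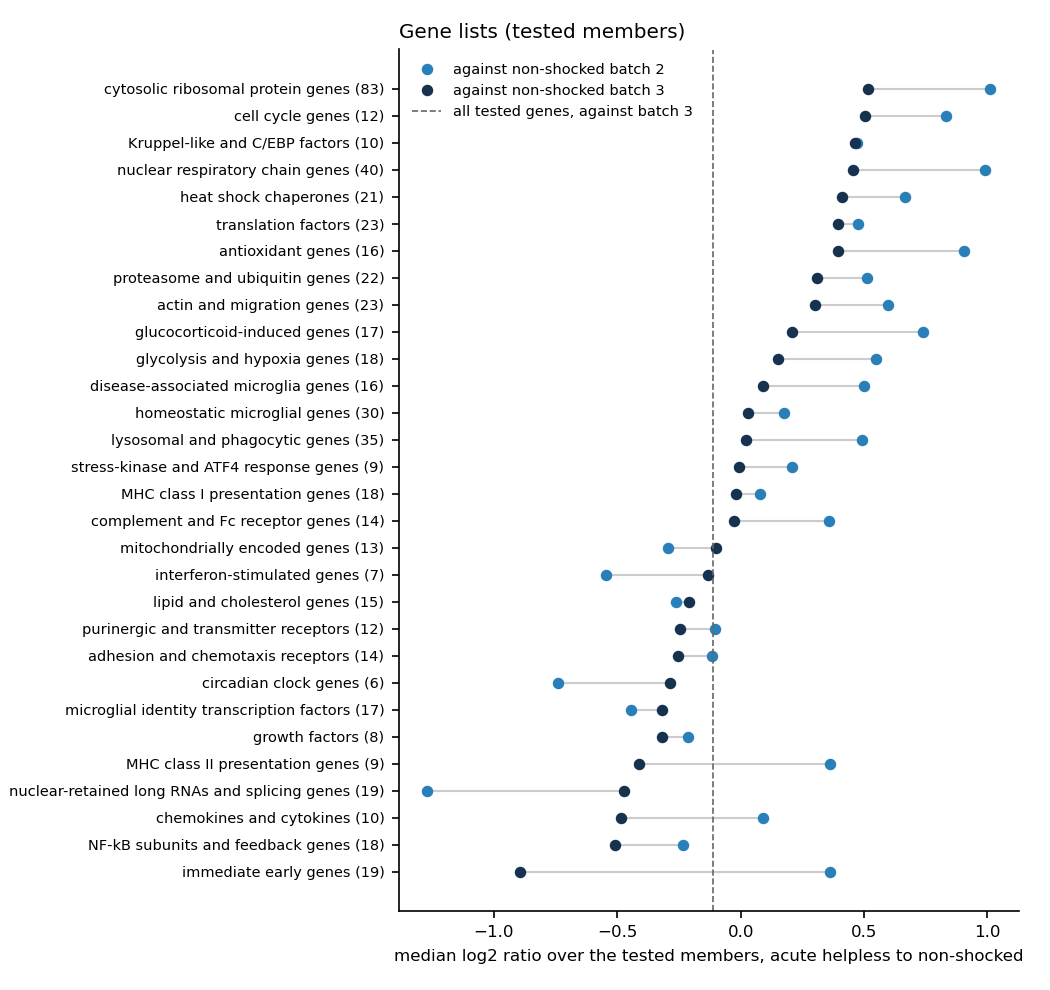
Median log2 ratio of acute helpless to non-shocked microglia over the tested members of each of 30 gene lists (number of members in brackets), against batch 2 and against batch 3; the dashed line is the median of all tested genes against batch 3, -0.11. Immediate early genes have medians of 0.36 and -0.89 on opposite sides of 0, and ribosomal protein genes have 1.01 and 0.51 on the same side.

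Of the 30 lists, 17 had medians above those of all tested genes against both batches and 9 below, and in 6 the medians against the 2 batches lay on opposite sides of 0. Among the medians not given above, those against batch 2 and batch 3 were 0.21 and -0.01 for stress-kinase and ATF4 response genes, where Eif1a was higher than both batches. For purinergic and transmitter receptors they were -0.11 and -0.25, with Adrb1 higher and Tgfbr2 lower than both. The list held Tgfbr2 although it is a TGF-beta receptor, which the glucocorticoid list also counts. For circadian clock genes the medians were -0.74 and -0.29, and of these genes 6 of 18 were tested and 0 called against both batches.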

How the data were processed

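Live CD45-positive hippocampal cells were sequenced from the 5' end on a droplet platform, and Cell Ranger 2.2.0, Seurat 2.3.4 and mm10 were used per the submitters' processing notes. The deposited matrix holds UMI counts per gene and cell, with the authors' table of library, batch, cluster and cell type. Here counts were summed over the microglia of each set and scaled to CPM (Python 3.11.15, numpy 2.4.6, scipy 1.17.1, pandas 2.3.3, scanpy 1.11.5). A lower-side count under 3 was set to 3. Genes listed under an older symbol in some batches and a newer one in others were joined (259 pairs), and 310 symbols counted under 1 annotation alone, with 0.449% of UMIs, were left out, Cebpd and Lcn2 among them. Named genes were the 12 highest and 12 lowest by ratio to the nearer batch with at least 30 UMIs, list members called against both batches or oppositely, and a few set genes; unnamed models were left out, and other list members are given as background values. The members and lists were chosen with earlier results of these data known. Scrublet marked 56 of 3005 cells as doublets, 6 and 9 of them in the compared microglia, and they were kept. The calculation was tested on simulated data. With 1 library a group, no p-value was computed. Some genes of the lists are not reported here.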

Additional observations from a re-analysis of the deposited data

How the results depend on the processing

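Alternatives moved the counts of genes more than their direction. The counts against all non-shocked microglia were 386 higher and 1392 lower, and against both batches 202 and 926. With median-of-ratios scaling 728 genes were higher than all non-shocked microglia and 424 than both batches. With each cell weighted equally these were 696 and 317, among cells with at least 2.5% ribosomal protein UMIs 252 and 73, and with cells thinned to 1000 or 500 UMIs 789 and 1058 were higher than all non-shocked microglia. Thinning to 1000 UMIs kept 72 of the 202 higher and 506 of the 926 lower genes. With a minimum of 5 CPM 613 were higher and 2514 lower, and 1581 lower than both batches. With 50 CPM these were 232 and 602, and 128 higher and 404 lower than both, and at 2-fold 83 and 398, and 31 and 221; a stricter limit leaves fewer genes by construction, and the other causes were not tested.

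Some log2 ratios changed sign. With equal weights these were H2-Eb1 against all cells (0.30) and, against batch 2, Hif1a (0.083), Nfkbid (0.23) and the circadian median (0.045). Thinned to 1000 UMIs they were Ccl4 (0.68 against all, 0.57 against batch 3), Hif1a (0.083 and 0.13), Txnrd1 (0.25 and 0.061) and Tagln2 against batch 2 (-0.080). Thinned to 500 UMIs they were Ccl4 against all (0.024), Hmgb2 (-0.39 against all, -0.55 against batch 3), Ndufs5 against batch 3 (-0.12) and, against batch 2, Eif1a (-0.34), Hif1a (0.44) and Tagln2 (-0.021). Ndufs5 stood at -0.12 against batch 2 in cells rich in ribosomal protein UMIs. Within cluster 1 Pecam1 (0.29), and within cluster 3 Eif1a (-0.012), Hif1a (0.25) and Sall1 (0.25), changed sign.

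Depth limits batch 2, where 3 UMIs are worth 17.3 CPM and 3034 of the 6755 tested genes had under 10 UMIs. No paired analysis was possible because each group is 1 library, and leaving out a replicate leaves a group empty.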
